A study of Drosophila melanogaster with 4 samples.

Results

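Isolated regions of ubiquitylated histone H2B (H2Bub) are enriched regions that lie at least 10000 bp from the next enriched region on both sides. They were chosen by 2 measured distances in the authors' combined list of regions, start minus previous end and next start minus end. The list holds 6056 enriched regions in all, of which 4767 lie on the chromosome arms X, 2L, 3L and 3R. On these 4 arms 342 regions met the rule (7.17%), and the other 4425 are the regions they are set against. Chromatin came from nuclei of heads of wild-type adults of the Oregon-R strain (official name Oregon-R-modENCODE) of Drosophila melanogaster, at a mixed adult stage, and was precipitated with the antibody NRO3. All samples share this strain, genotype, stage and tissue, and flies were raised in population cages. There were 2 ChIP samples and 2 inputs, numbered as replicates 1 and 2. A region list exists here for each ChIP replicate and for the combination of them, while no profile of the inputs was used. The labels do not tell whether both replicates drew on one population of flies, so their spread may be technical.

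H2Bub is a single ubiquitin attached to the tail of histone H2B, placed by the ligase Bre1 together with its partner Rad6. It is known from the bodies of transcribed genes, where it follows elongating RNA polymerase and precedes methylation of histone H3. Fly heads contain mostly neurons, glia, photoreceptors, muscle and fat body, so a region called in heads can come from any of these tissues.

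The distances that selected the regions are given as a description, with no test. The nearer neighbour of an isolated region lay at a median distance of 20690 bp, with a range of 10104 to 133614 bp. For the other regions of the same arms the median was 790 bp and the largest nearer distance 9974 bp. The farther neighbour of an isolated region lay at a median of 51611 bp and at most 457390 bp. Isolation was often lopsided: the farther distance was more than 2 times the nearer one in 169 of 342 regions (49.4%). At 20000 bp on both sides 175 regions remained, at 50000 bp 41, and at 100000 bp 4. Isolation at 10 kb did not mean an empty neighbourhood. A median of 8 other enriched regions lay within 100 kb of an isolated region, against 13 for the other regions, and 4 isolated regions had none within that range.

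**Figure D1:**
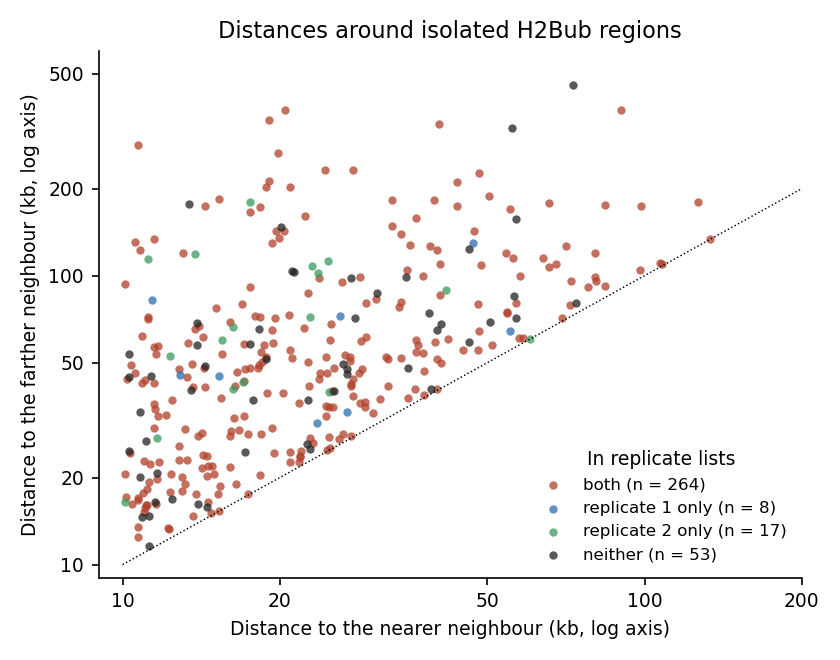
Distance to the nearer neighbour (x axis, kb, log axis) against distance to the farther neighbour (y axis, kb, log axis) for the 342 isolated regions, coloured by presence in the replicate lists; the dotted line marks equal distances. Regions in neither replicate reach a nearer distance of 73.8 kb, and the 4 points beyond 100 kb on both axes were present in both replicates.

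The 3 regions just inside the threshold were all on X. They ran from 19938182 to 19956940 (nearer distance 10104 bp), from 14906678 to 14910264 and from 14920370 to 14926578. The last pair are neighbours of each other, at 10106 bp. Just outside lay 2L:7782410-7786406 (9974 bp), 2L:436894-438974 (9914 bp) and 3R:21059660-21061388 (9894 bp). The first and last region of each arm, 8 in all, have a neighbour on 1 side only and were counted among the others.

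Isolated regions included both narrow regions and broad domains. They measured 1001 to 86443 bp with a median of 4201 bp, against 1001 to 106499 bp with a median of 3561 bp for the other regions. Regions with 1 side open by 10 kb or more (1782 of the others) had a median of 3817 bp, and those with no open side (2643) had 3387 bp. Broad domains were part of the isolated set: 70 of 342 exceeded 10 kb (20.5%, 95% Wilson interval 16.5 to 25.1%), against 762 of 4425 (17.2%, 16.1 to 18.4%). Over 20 kb wide were 33 isolated regions (9.65%, 6.95 to 13.2%), against 283 others (6.40%, 5.71 to 7.15%). At the narrow end, 79 isolated regions of up to 2 kb made up 23.1% of the set, against 26.8% of the others. Together the isolated regions covered 2.68 Mb, or 8.25% of all enriched bases of the 4 arms, and 61.4% of these 2.68 Mb lay in regions over 10 kb. Wilson intervals here and below cover counting error only and treat regions as independent. Width and score come from the list that selected the regions, so no test was made of them.

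The rule favours long free stretches, since it asks for 10 kb or more on both sides. The region-free stretches beside isolated regions took up far more of the genome than the regions themselves. They numbered 580, which is 47.0% of the 1233 stretches of 10 kb or more between neighbours on these arms. They summed to 28.7 Mb, or 29.3% of the length of the 4 arms. By arm this share was 25.6% on X, 26.0% on 2L, 36.1% on 3L and 29.1% on 3R. How much of these stretches is open to read mapping was not tested.

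The authors' score, whose scale is not given in the sources used here, is described by its percentile within the combined list. Isolated regions had a median percentile of 62.2, against 50.2 for the other regions, 54.1 for those with 1 open side and 47.5 for those with none. Their scores ran from 0.133 to 2.19 with a median of 0.775, against 0.0557 to 2.41 with a median of 0.627 for the other regions. Above the 75th percentile of the list lay 120 isolated regions (35.1%, Wilson interval 30.2 to 40.3%), against 24.9% of the others (23.7 to 26.2%). At or below the 25th percentile lay 61 (17.8%, 14.1 to 22.2%), against 24.2% (23.0 to 25.5%). Among the 100 highest scores of the combined list, 10 belonged to isolated regions and 68 to other regions of the same arms. These were 2.92% of isolated regions (Wilson interval 1.60 to 5.30%) and 1.54% of the others (1.21 to 1.94%), with overlapping intervals.

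**Figure D2:**
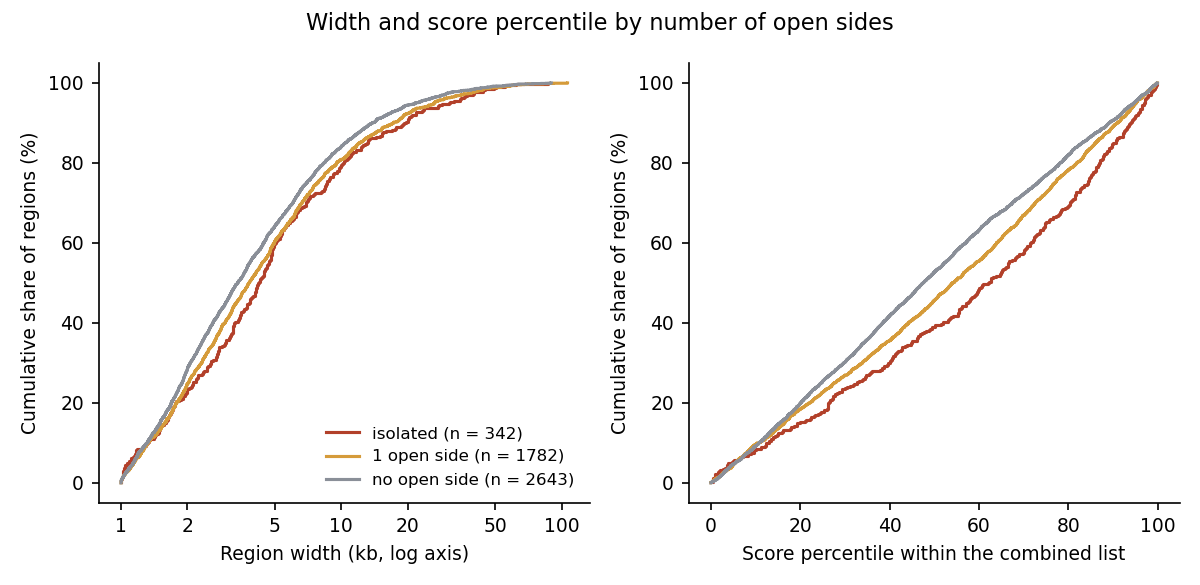
Cumulative share of regions (y axis, %) by width (left, kb, log axis) and by score percentile within the combined list (right), for isolated regions and for regions with 1 or no side open by 10 kb or more. The curve of the isolated regions lies lowest over most of both panels, with medians of 4201 bp and the 62.2nd percentile, and the curve of regions with no open side lies highest.

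Score rose with width in both sets, with a Spearman's rho across regions of 0.77 for isolated and 0.79 for other regions; regions of a list share its libraries and are not independent. The percentile was therefore also read within classes of width. Between 2001 and 5000 bp the median was 55.5 for 126 isolated regions, against 47.4 for 1585 others. Between 5001 and 10000 bp it was 80.6, against 71.3, and between 10001 and 20000 bp it was 88.8, against 81.7. Over 20 kb the medians were 89.5 and 89.0. The order was the other way between 1301 and 2000 bp, where 47 isolated regions had a median of 10.2, against 13.6 for 762 others. The narrowest class, 1001 to 1300 bp, stood above that one in both sets, at 31.0 for 32 isolated regions and 22.2 for 426 others. Quartiles overlapped in every class.

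**Figure D3:**
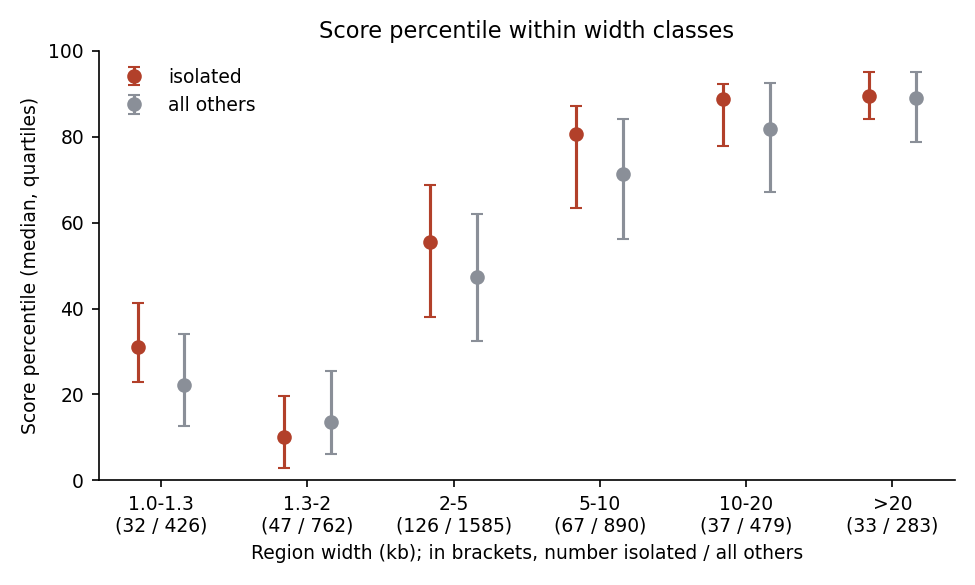
Score percentile within the combined list (y axis, points are medians and bars quartiles) in 6 classes of region width (x axis, kb) for isolated and all other regions. Medians of isolated regions were higher in every class except 1301 to 2000 bp, and the quartiles overlapped throughout.

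Most isolated regions were present in both replicate lists. Overlap by at least 1 bp with a region of both replicates was found for 264 of 342 (77.2%, Wilson interval 72.5 to 81.3%), against 2970 of 4425 other regions (67.1%, 65.7 to 68.5%); over all 4767 regions of the 4 arms the share was 67.8%. Replicate 1 held 272 of the isolated regions (79.5%; 72.8% of all regions) and replicate 2 held 281 (82.2%; 76.5% of all regions). Only replicate 1 held 8 of them, only replicate 2 held 17, and 53 were in neither (15.5%, 12.0 to 19.7%), against 831 of the others (18.8%; 18.5% of all regions). Presence is not independent of the rule, because the combined list describes the same libraries, so it was not tested. In bases, 95.1% of the isolated length belonged to regions present in both replicates and 2.68% to regions present in neither.

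Presence followed width. All 70 isolated regions over 10 kb, and 135 of the 137 over 5 kb, were in both replicate lists. The shares of other regions were much the same, at 97.5% from 5001 to 10000 bp, 99.8% from 10001 to 20000 bp and 100% over 20 kb. The 2 exceptions among the isolated regions were on X, from 14920370 to 14926578 (in replicate 2 only, with 33.8% of its length covered) and from 19855268 to 19860744 (in replicate 1 only, with 89.4% covered). Between 2001 and 5000 bp, 115 of 126 isolated regions were in both (91.3%, Wilson interval 85.0 to 95.1%), against 83.1% of regions with 1 open side (80.0 to 85.9%) and 73.5% of those with none (70.6 to 76.2%). Between 1301 and 2000 bp the shares were 29.8% (18.7 to 44.0%), 18.6% (14.5 to 23.6%) and 12.9% (10.2 to 16.2%). In these 2 classes the share in both lists was higher with each further open side. From 5001 to 10000 bp it was 97.0%, against 97.3% and 97.7%.

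**Figure D4:**
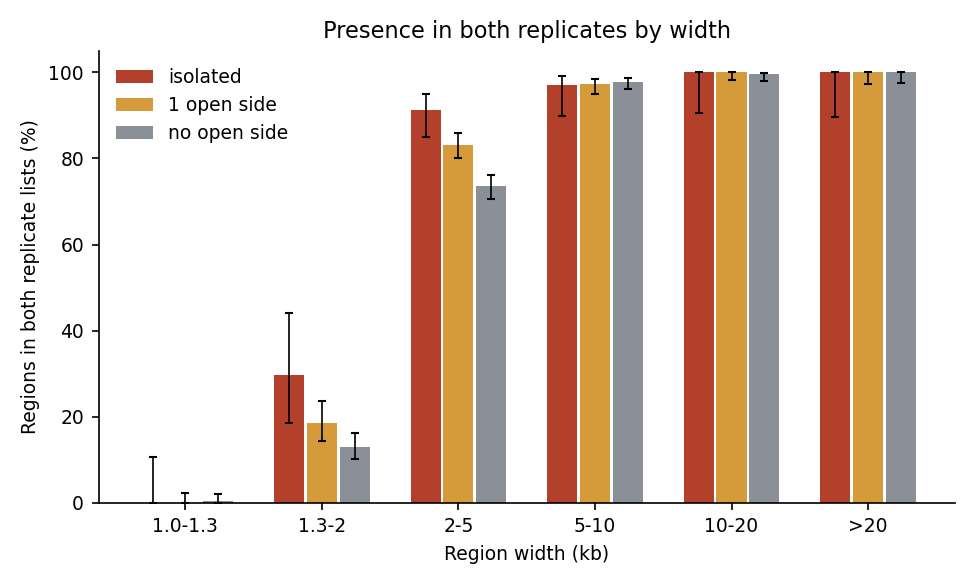
Share of combined regions that overlap a region of both replicate lists (y axis, %) by region width (x axis, kb), for isolated regions, regions with 1 open side and regions with no open side; bars carry 95% Wilson intervals. Isolated regions reach 29.8% at 1.3 to 2 kb and 91.3% at 2 to 5 kb, above both other groups, and from 5 kb all groups lie close to 100%.

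Below 1301 bp, the narrowest width found in either replicate list, 31 of 32 isolated regions were in neither replicate, against 396 of 426 others. Of the 53 isolated regions in neither list, 49 were at most 2 kb wide, and their median width was 1175 bp, against 5155 bp for those in both. Their median score percentile was 24.6, against 71.8. The other regions showed the same contrast between neither and both, with median widths of 1325 and 5569 bp and median percentiles of 19.9 and 66.1. Even so, 4 of the 53 ranked above the 75th percentile, against 10 of the 831 other regions in neither list. These 4 were named after their values were seen. They lay on 3L:15416992-15418000 (1009 bp, score 1.77), X:14451880-14452880 (1001 bp, 1.60), X:22313014-22314170 (1157 bp, 1.44) and X:2964880-2966032 (1153 bp, 1.19). The 3L region had no neighbour within 73840 bp on either side.

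Where a replicate held an isolated region, it placed it in much the same way. Replicate regions covered a median of 92.9% of the isolated region in replicate 1 and 94.4% in replicate 2, against 91.0% and 93.4% for the other regions. Starts differed from the combined list by a median of 107.5 bp in replicate 1 and 85 bp in replicate 2, and ends by 138 and 93 bp. Of those present, 46 of 272 were broken into 2 or more pieces in replicate 1 (16.9%, Wilson interval 12.9 to 21.8%) and 36 of 281 in replicate 2 (12.8%, 9.40 to 17.2%). For other regions the shares were 18.3% and 16.6%, although there a single replicate region may also span more than 1 combined region. Across the 264 regions in both lists, the counterpart's score had a median of 1.00 in replicate 1 (0.189 to 2.19) and 1.02 in replicate 2 (0.307 to 2.25). Its percentile within the replicate list differed between replicates by a median of 5.55 points, and by 51.6 points at most.

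Around the isolated regions the replicate lists were mostly empty too. With the replicate pieces of an isolated region taken as 1, 263 of the 264 regions present in both replicates had no other replicate region within 10 kb in either list. Called as 1 region in both replicates were 208 of the 264 (78.8%), against 2200 of the 2970 other regions present in both (74.1%). In a list where a region is split, its pieces are neighbours of each other and do not meet the rule. The lists leave little room for another outcome, since 4330 of 4336 replicate 1 regions and 4441 of 4449 replicate 2 regions of the 4 arms overlap a combined region. The exception was 2L:12036288-12041128, which had another region 3816 bp away in replicate 2, from 12044944 to 12046630. That replicate region had a score of 0.137, the second lowest in its list. At the same place the combined list holds its single depleted region of these 4 arms, from 12044956 to 12046612, with a score of -0.00944.

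The same rule applied to each replicate list alone gave more isolated regions, 417 of 4336 in replicate 1 (9.62%) and 396 of 4449 in replicate 2 (8.90%). Of these, 226 (54.2%) and 245 (61.9%) overlapped an isolated region of the combined list, which is 66.1% and 71.6% of the 342. For 100 of the 417 and 102 of the 396, the combined neighbours within 10 kb were regions found in neither replicate. For another 68 and 35, at least 1 of these neighbours was found in the other replicate and none in the same one. For 21 and 13 a combined neighbour was found in the same replicate as well. Any replicate region that spans more than 1 combined region also counts in this class. A further 2 and 1 had no combined region at all. Isolated regions of the replicate lists were also wider and higher in score than the rest of their list: the median width was 3933 bp, against 3413 bp, in replicate 1 and 3827 bp, against 3434 bp, in replicate 2. Median percentiles were 57.8, against 50.9, and 59.2, against 50.4. The share over 10 kb was nearly equal there, at 16.1%, against 15.2%, in replicate 1 and 15.9%, against 15.7%, in replicate 2. These differences in the share over 10 kb were smaller than that in the combined list, 20.5% against 17.2%.

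The 5 regions with the largest nearer distance measured 8117 bp or more, while the 41 with a nearer distance of 50 kb or more ranged from 1001 to 55409 bp. First was 3L:6325334-6345698, a region of 20365 bp with neighbours at 133614 and 133996 bp. It was called as 2 regions in each replicate, which covered 95.3% of it in replicate 1 and 84.8% in replicate 2, and its score of 0.875 lay at the 68.9th percentile. Next was 2L:1406096-1420506, 14411 bp wide, with neighbours at 126294 and 179238 bp. Its percentile of 41.8 was the lowest of all 70 isolated regions over 10 kb, and it was broken into 2 pieces in replicate 1 and 3 in replicate 2, with 68.7% and 75.4% covered. On 3L:13221574-13271860 a domain of 50287 bp stood 109870 and 107766 bp from its neighbours. It was a single region of 50062 bp in replicate 1 and of 50137 bp in replicate 2, with scores of 1.66 in both and 1.65 in the combined list. On 3R:23224074-23263684 a domain of 39611 bp had 107074 and 110198 bp on its sides, and scores of 1.38 and 1.34 in replicates 1 and 2. The fifth, X:2858468-2866584, measured 8117 bp, with 60.2% covered in replicate 1 and 63.9% in replicate 2. Its right neighbour at 98296 bp was the narrow X region of score 1.19 described above as being in neither replicate. Without it, in the replicate lists, the nearer distance was 126838 bp in replicate 1 and 128167 bp in replicate 2.

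Median width was higher in each further band of nearer distance, at 3857 bp for 167 regions from 10 to 20 kb, 4586 bp for 134 from 20 to 50 kb and 5287 bp for 41 beyond 50 kb. The share over 10 kb was 14.4%, 23.1% and 36.6% (15 of 41) in the same bands. Among the other regions it was 17.2%, so the band from 10 to 20 kb lay below them. The median percentile was 57.1, 67.8 and 70.7 in these bands. Presence in both replicates was 77.2%, 76.9% and 78.0% in these bands, with overlapping Wilson intervals.

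The widest isolated region, 3L:22128802-22215244, spanned 86443 bp and was broken into 6 pieces in replicate 1 and 4 in replicate 2, with 88.1% and 88.9% covered. It lay 57626 and 36864 bp from its neighbours. The 3L domain from 8820282 to 8882568 measured 62287 bp and was found as 2 regions in replicate 1 and 1 in replicate 2. The 3R domain from 18724450 to 18779858 measured 55409 bp, with 104984 and 98146 bp on its sides, and came as 2 regions in replicate 1 and 3 in replicate 2. The fourth is the 50287 bp domain of 3L named above, and the fifth was 2L:14185350-14234516, 49167 bp, whole in replicate 1 and in 2 pieces in replicate 2. By score these 5 domains ranked from 170 to 1043 in the combined list.

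The isolated regions with the highest scores ranked high in every list. They were picked by their score in the combined list, which describes the same libraries, so their replicate ranks are not independent of that pick. 3L:748612-756254, only 7643 bp wide, ranked 8 in the combined list, 7 in replicate 1 and 3 in replicate 2, with scores of 2.19, 2.15 and 2.25. Its neighbours lay 37752 and 46646 bp away. 2L:922254-958186, 35933 bp, ranked 11, 4 and 14. 3R:902062-913298, 11237 bp, ranked 19, 18 and 27, and had 122962 bp free on one side. 2L:12811200-12823514, 12315 bp, ranked 31, 28 and 11, with 83880 and 175250 bp to its neighbours. 3R:22624040-22667872, 43833 bp, ranked 37, 34 and 47. Each of the 5 was called as 1 region in both replicates, with at least 84.7% of its length covered.

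Of the 61 isolated regions at or below the 25th percentile, 22 were in both replicates (36.1%), 12 in 1 and 27 in neither (44.3%), against 77.2% in both for all 342. The same shares were not taken for other regions of such low score, so they are not read as a trait of isolated regions. The lowest percentile among those in both lists belonged to 3R:13558914-13560560, 1647 bp wide, at 0.454 in the combined list, 1.67 in replicate 1 and 0.456 in replicate 2. Its nearer distance was 14274 bp in the combined list, 14319 bp in replicate 1 and 14360 bp in replicate 2. This region was chosen after its values were seen.

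Isolated regions were least frequent on X. They made up 5.27% of X regions (67 of 1271, Wilson interval 4.17 to 6.64%), 7.13% on 2L (72 of 1010, 5.70 to 8.88%), 8.26% on 3L (92 of 1114, 6.78 to 10.0%) and 8.09% on 3R (111 of 1372, 6.76 to 9.65%). Per Mb of arm this came to 2.99 on X, 3.13 on 2L, 3.75 on 3L and 3.98 on 3R, while the other regions numbered 53.7, 40.8, 41.6 and 45.2 per Mb. The rule applied to the replicates gave the lowest share on X as well, 7.48% in replicate 1 and 6.71% in replicate 2, against 9.61 to 11.0% and 9.13 to 10.1% on the autosomal arms. The intervals of X and 2L overlapped. On every arm the isolated regions had the higher median percentile, at 62.6, against 54.7, on X, 63.5, against 47.6, on 2L, 58.6, against 47.2, on 3L and 62.1, against 46.9, on 3R. Presence in both replicates was 65.7% of isolated regions on X, against 62.5% of others, and 84.7%, against 69.1%, on 2L. It was 79.3%, against 67.2%, on 3L and 77.5%, against 70.0%, on 3R.

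Along the arms, isolated regions were spread from end to end. Each arm was cut into 5 bins of 20% of its length, numbered from the telomere. Over the 4 arms the bins held 60 to 76 isolated regions each, from 6.18% of regions in bin 3 to 8.15% in bin 1, with overlapping intervals. The 2 Mb at the telomere side held 30 (8.77% of isolated regions, against 8.05% of the others) and the 2 Mb at the centromere side 27 (7.89%, against 6.33%). Single arms varied more, in bins that were chosen after the values were seen. On 2L bin 1 held 24 of 72 isolated regions (33.3%, against 18.4% of the others of that arm). On 3R bin 4 held 30 of 111 (27.0%, against 18.4%), and on 3L bin 3 held 22 of 92 (23.9%, against 16.2%). On X bin 3 held 8 of 67 (11.9%, against 22.2%).

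**Figure D5:**
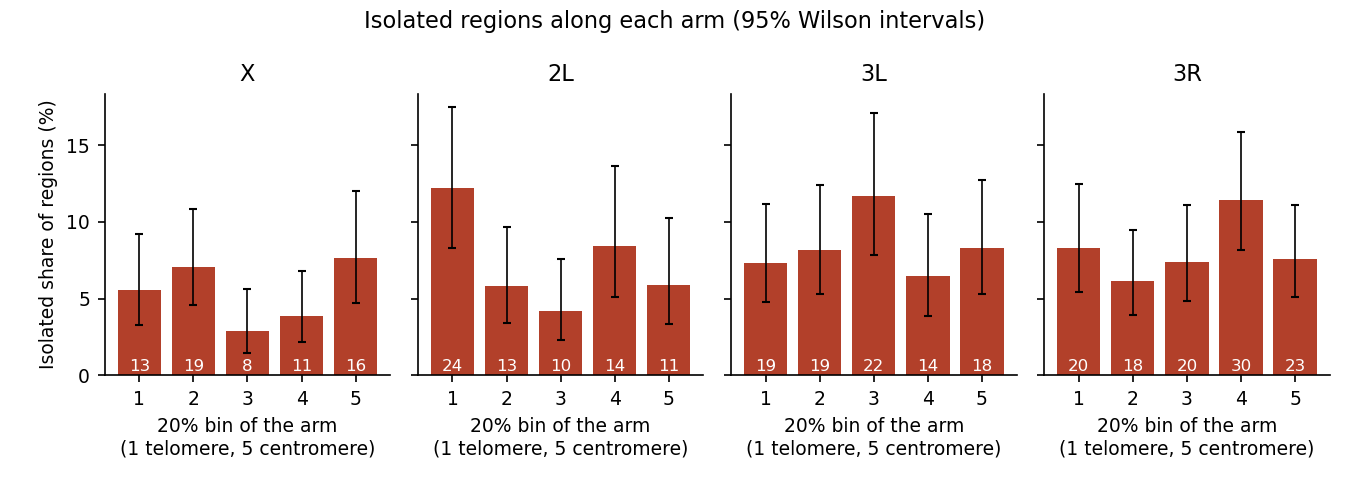
Share of enriched regions that were isolated (y axis, %) in 5 bins of 20% of the length of X, 2L, 3L and 3R (x axis, bin 1 at the telomere and bin 5 at the centromere); bars carry 95% Wilson intervals and white numbers count isolated regions. Shares run from 2.91% in bin 3 of X to 12.2% in bin 1 of 2L, and no end of the arms stands out on all 4.

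Some isolated regions had another one next to them. Of 238 unbroken runs of isolated regions, 168 were single and 70 held 2 or more, so that 174 of 342 isolated regions had another isolated region as a direct neighbour (50.9%). Counted by side, an isolated region lay across 208 of the 684 open sides of isolated regions (30.4%), against 476 of the 1782 open sides of regions with 1 open side (26.7%). The longest run, 7 regions on 3R:2970290-3359398, spanned 389109 bp with 9.92% of its length enriched. Its members measured 1343 to 10589 bp, and 6 of them were in both replicates. They included strong narrow regions, such as 3355888 to 3359398, with a score of 1.58 at the 96.1st percentile and 1.62 in replicate 1. A run of 6 on 2L:2401146-2586162 held 4 regions that were in both replicates. These runs were chosen after the values were seen.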

How the data were processed

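H2Bub ChIP-seq was done on head nuclei, with 2 ChIP samples and 2 inputs. Per the submitters' processing notes, Bowtie 0.12.7 was the aligner. The deposited files are 3 lists of regions with a score, in coordinates of FlyBase release 5 per the file headers. The authors' caller, threshold, minimum width, scale of the score and way of combining the replicates are not given in the sources at hand. No read counts were used, so depth is unknown and the score has no error. The 2 depleted regions were left out before distances were taken.

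Distances, widths, percentile of the score within its list (ties averaged), overlaps (at least 1 bp) and 95% Wilson intervals were computed with Python 3.11.15, pandas 2.3.3, NumPy 2.4.6 and statsmodels 0.14.6. The code was tested on simulated data. The rule for isolated regions, the lists and the named regions (the 5 with the largest nearer distance, the 5 widest, the 5 highest by score, and 3 on each side of the threshold) were chosen with earlier results of these data known. All results are descriptions without a test, because the regions were chosen from the same list. Gene names and sequences are not given, since only a gene table of release 6 was to hand. Alternatives were other distances, arm ends as open sides, the upper 50% by score, merging, other overlap criteria and each replicate alone.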

Additional observations from a re-analysis of the deposited data

How the results depend on the processing

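No paired analysis was possible because only ChIP samples entered as region lists and nothing was tested between groups. Of 41 alternative values, 28 lay within 1.5 times the reported count or within the 95% interval of the reported value. A distance of 5000 bp gave 683 isolated regions, and 20000 bp gave 175 with a median percentile of 68.9. Of these 175, 77.1% were present in both replicates, and 100% of those present in both were isolated in both lists. The upper 50% by score gave 605 regions, a median width of 7433 bp, a percentile of 75.9 and 96.9% in both replicates, against 97.8% of other regions; 48.1% of those were isolated in both replicate lists, because the distances there count regions that the setting leaves out. Merging of regions under 1000 bp apart gave a median width of 5952 bp, against 5363 bp for other regions. Reciprocal overlap of 50% put 68.4% in both replicates, against 56.2% of other regions, and changed the number of replicates for 5 of 20 named regions. Taking only combined regions that overlap both replicates, chosen after seeing the data, gave a width of 5995 bp, against 5454 bp, and a percentile of 70.1, against 66.1. Leaving out each replicate in turn gave 396 to 417 regions, widths of 3827 to 3933 bp and percentiles of 57.8 to 59.2. Isolated regions had the wider median and the higher median percentile in all of these settings. After merging, however, the median width of other regions lay within the 95% interval of the isolated median (4991 to 6921 bp). The same held with only regions that overlap both replicates (5337 to 6789 bp). The share in both replicates was lower than in other regions with the upper 50% by score. With that setting the difference in median percentile was also much smaller than the reported one. The median of the other regions lay there within the 95% interval of the isolated median. A cut by score narrows the range of percentiles in both sets, and it also changes which regions count as isolated. Whether either of these accounts for the smaller difference in percentile was not tested. The reported difference in percentile therefore depends on keeping the regions of lower score in the list.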

Other observations

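The largest free side of any isolated region, 457390 bp, belonged to 3L:18176300-18177556, a region of 1257 bp at the 6.43rd percentile that was in neither replicate. The next was 3L:23321824-23334388, 12565 bp wide and in both replicates, with 373194 bp free on its centromere side. The region across that stretch, 3L:23707582-23710576, was isolated too, with 20502 bp on its other side, and was also in both replicates. The last region of 3L, from 24530194 to 24536336, was in both replicates and was counted among the others because the arm ends there. Its only neighbour, 324666 bp away, was the isolated region 3L:24204018-24205528, which was in neither replicate.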
